A study of Mus musculus with 28 samples.

Results

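Circadian clock genes were followed through skin wound healing in mice, 10 of the 29068 gene symbols in the count table. They were taken by name: the activators Arntl, Clock and Npas2, the period genes Per1, Per2 and Per3, the nuclear receptors Nr1d1 and Nr1d2, the output factor Dbp and the repressor Ciart. The genes were picked with their levels over all days and their spread within days already known, so their levels, folds and spreads are given as a description without a test. All 10 passed the filter on low counts, which kept 18107 genes.

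The tissue was the wound site on the back of wild type mice, labelled C57BL/6J and natural wound healing and called MLKL+/+ in the study, which carry intact Mlkl, a gene of the necroptosis pathway. The mice were 8 weeks old, and a 6 mm punch made the wound. The whole site was taken, with scab and epithelial margin, so each library is a mixture of skin, muscle and infiltrating cells. There were 28 libraries of total RNA, 4 on each of Day0, Day3, Day5, Day7, Day10, Day12 and Day14, and Day0 is the control of the labels. The study counts the day of injury as day 1, and the label text speaks of 5 repeats. The sources used here do not say that each library is a separate mouse, so the spread between libraries may in part be technical, and they do not give the hour of day at which tissue was taken. Libraries held 36706513 to 40655764 counts.

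The mammalian clock is a transcriptional feedback loop that runs in most cells, skin included. ARNTL (also called BMAL1) pairs with CLOCK or its paralog NPAS2 and binds E-boxes, which turns on Per and Cry genes, Nr1d1, Nr1d2, Dbp and Ciart. PER and CRY proteins then block the activator pair, and the NR1D1 and NR1D2 receptors (REV-ERB alpha and beta) repress Arntl, Clock and Npas2. In a rhythmic tissue, Arntl and Npas2 therefore peak at an opposite time of day from Dbp and the Per genes.

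Sequences upstream of the start sites are shown for the 3 members that had an exact CACGTG E-box or the exact D-box TTATGTAA, the element that DBP, TEF, HLF and NFIL3 share. RefSeq windows of 250 bases before the start (build GRCm38.p6) were listed for 9 of the 10 members, and Per2 was not among them. Bases annotated as exon at the 3′ end of a window were removed, which left 249 bases for Per1 (chr11:69098699-69098947, plus strand), 250 for Per3 (chr4:151044666-151044915, minus strand) and 227 for Ciart (chr3:95882252-95882478, minus strand). Capitals mark the motif.
Per1: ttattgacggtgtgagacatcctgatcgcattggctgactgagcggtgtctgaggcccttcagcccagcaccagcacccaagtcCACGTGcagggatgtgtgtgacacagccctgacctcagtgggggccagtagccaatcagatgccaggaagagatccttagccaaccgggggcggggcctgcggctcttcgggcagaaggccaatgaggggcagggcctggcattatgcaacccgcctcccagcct
Per3: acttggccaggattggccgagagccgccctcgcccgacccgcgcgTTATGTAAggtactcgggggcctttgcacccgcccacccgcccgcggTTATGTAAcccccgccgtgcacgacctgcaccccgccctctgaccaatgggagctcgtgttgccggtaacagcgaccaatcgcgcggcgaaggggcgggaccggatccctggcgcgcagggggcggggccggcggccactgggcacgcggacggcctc
Ciart: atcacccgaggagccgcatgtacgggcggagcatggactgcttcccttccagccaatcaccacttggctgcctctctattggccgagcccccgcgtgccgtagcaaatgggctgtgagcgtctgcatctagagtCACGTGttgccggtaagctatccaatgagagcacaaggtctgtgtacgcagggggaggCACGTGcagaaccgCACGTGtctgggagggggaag

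Ciart held 3 E-boxes, at 116, 58 and 44 bases before its start, and Per1 held 1. RefSeq listed a pair of start sites for Per1, and the window of the other one (chr11:69099902-69100151) held no E-box. The window shown lies inside the Per1 gene as GENCODE draws it, since that annotation starts the gene further upstream. Of all 32851 windows, 6.02% held this E-box. Per3 held 2 copies of the D-box, found in 0.819% of all windows. The variant E-box CACGTT was found in Nr1d1 alone of the 9, against 3.85% of windows, and a second D-box spelling (TTACGTAA), the CRE TGACGTCA and the RORE motif were in none of the 9. Both strands were searched, and CACGTG reads the same on both. A match is a stretch of letters, and nothing was measured on binding.

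The Day0 libraries did not agree on the clock genes. Replicates 2 and 3 had high Arntl, Npas2 and Clock and low Dbp, Per1, Per2, Per3, Nr1d2 and Ciart, and replicates 1 and 4 had the reverse. For each of the 10 genes, the pair of replicates 2 and 3 stood at one end of the Day0 range and the pair of replicates 1 and 4 at the other, although for Nr1d1 the gap between the pairs was 1.04-fold. Levels below are CPM, counts scaled to the library's size by TMM, and folds between libraries come from log2 CPM with a prior count of 2.

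Arntl, the indispensable activator (chr7:113207465-113314126), had 473, 1791, 1810 and 248 counts in Day0 replicates 1 to 4, or 12.5, 45.3, 46.9 and 6.90 CPM. Replicates 2 and 3 were thus high and lay 1.04-fold apart, and the lowest and highest libraries were 6.76-fold apart. Npas2 (chr1:39193731-39363236) followed Arntl, with 144, 596, 612 and 79 counts and a 7.08-fold range. Clock (chr5:76209868-76304792) had 1741, 3473, 3488 and 1694 counts, the same order of pairs over a smaller range of 1.97-fold.

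Dbp, a D-box factor read as an output of the activators (chr7:45705088-45710203), had 4405, 738, 661 and 6141 counts, or 116, 18.7, 17.1 and 171 CPM. Its range was 9.94-fold, with replicates 1 and 4 high. Per2, a core repressor (chr1:91415982-91459324), had the widest range of the 10 at 21.02-fold, from 1193, 152, 83 and 1662 counts. Per3 (chr4:151003652-151044665) had 1462, 418, 369 and 2245 counts, a 6.50-fold range. Per1 (chr11:69095217-69109960), also known as an immediate target of stress and glucocorticoid signals, had 3589, 876, 846 and 4260 counts and a 5.39-fold range. All of these were high in the same pair of libraries.

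Ciart, which represses the activator pair (chr3:95878503-95882251), had 296, 83, 93 and 469 counts in the Day0 libraries and a 6.10-fold range. Nr1d2 (chr14:18204054-18239127) had 4740, 2599, 2515 and 5492 counts and a 2.34-fold range. Nr1d1 (chr11:98767932-98775333) had 4827, 4490, 4721 and 6251 counts and the smallest range, 1.53-fold. For these receptors and Ciart replicate 4 was the highest library.

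**Figure D1:**
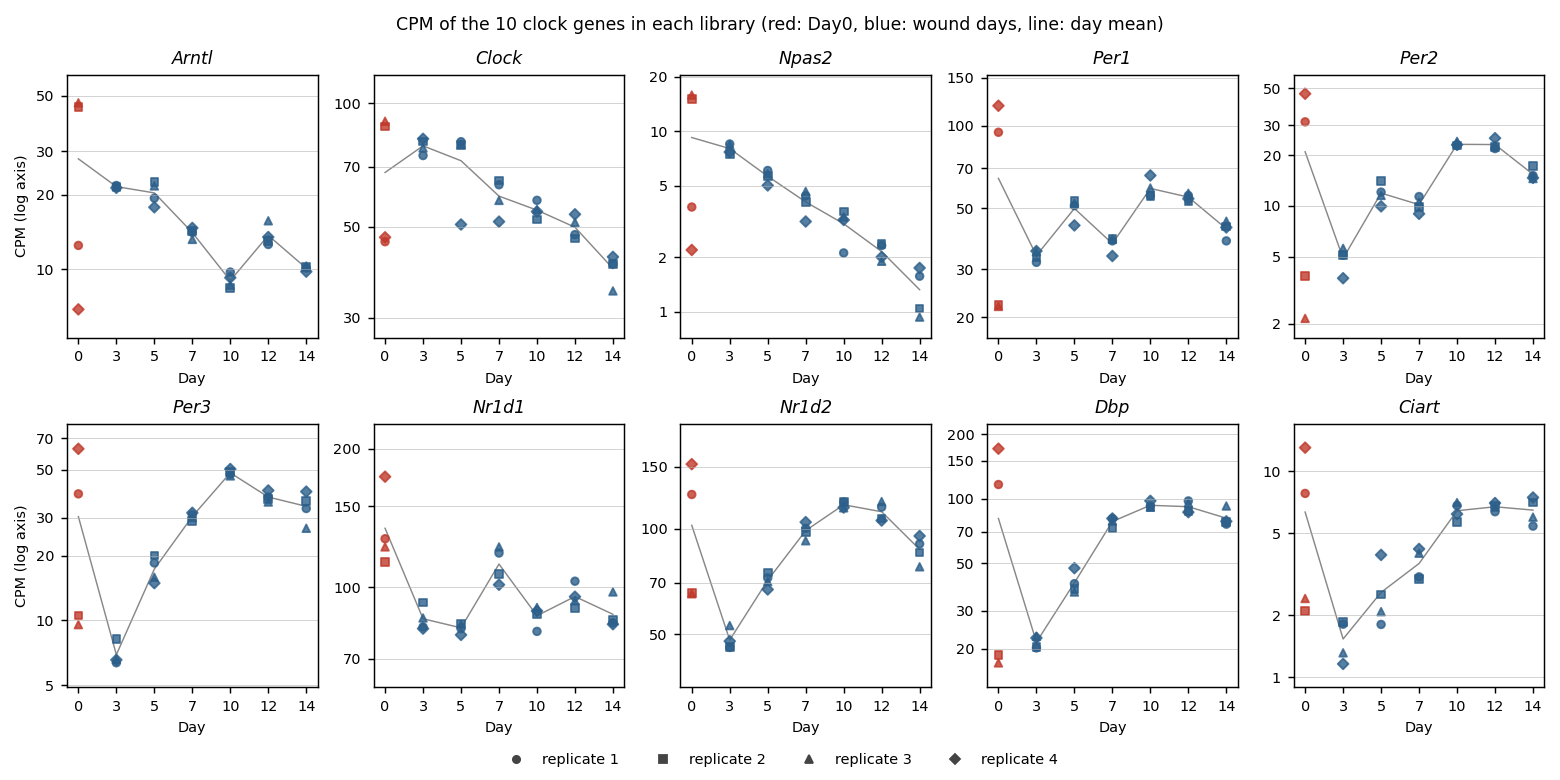
CPM (log axis) of the 10 clock genes in each of the 28 libraries against the day, with marker shape for the replicate number, red for Day0, blue for wound days and a grey line through the day means. The 4 Day0 libraries form a high and a low pair in most panels, and the wound-day libraries lie close together.

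The order of libraries within Day0 can also be read from the ratio of an output gene to an activator, which does not depend on the library scale. On FPKM, which divides counts by gene length and library total, the ratio of Dbp to Arntl was 71.0, 3.14, 2.78 and 189 in replicates 1 to 4. The size of such a ratio rests on the authors' gene lengths, which the values put at about 19000 bases for Arntl and 2500 for Dbp, where the annotation used here has 7523 and 2993 exonic bases, while its differences between libraries do not. The ratio of Per3 to Npas2 was 6.35, 0.439, 0.377 and 17.8. Replicates 1 and 4 had high ratios, and replicate 4 exceeded replicate 1 in both.

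The spread of the members within Day0 was wide against that of other genes, and this was not so on wound days. The median SD of log2 CPM over the 10 members was 1.33 in Day0, against 0.221 for all genes tested, and the median range was 6.30-fold against 1.40-fold (n = 4 libraries). Of all genes tested, 0.519% had a Day0 SD at least as large as that of Per2 and 0.989% as large as that of Dbp. The share was 1.73% for Npas2, 1.91% for Arntl, 2.04% for Per3, 2.30% for Per1 and 2.59% for Ciart. It was 15.4% for Nr1d2, 19.8% for Clock and 42.4% for Nr1d1. Since the genes were picked with this spread in view, the shares describe them and carry no test.

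On wound days the median SD of the members was 0.07 to 0.159, against 0.102 to 0.156 for all genes tested. The SD of single members ran from 0.013 (Arntl on Day3) to 0.479 (Ciart on Day5). The Day0 SD was 10.5 times the largest wound-day SD for Dbp, 9.65 times for Per1, 8.94 times for Arntl and 8.54 times for Per2. For Clock it was 1.65 times, the smallest excess of the 10. The 4 Arntl libraries of Day3 had 21.8, 21.5, 21.6 and 21.3 CPM, and those of Day14 had 10.1, 10.2, 10.3 and 9.79 CPM. Counts were lowest for Npas2 on Day14 (38 to 73) and for Ciart on Day3 (42 to 68), where counting error adds to the spread.

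**Figure D2:**
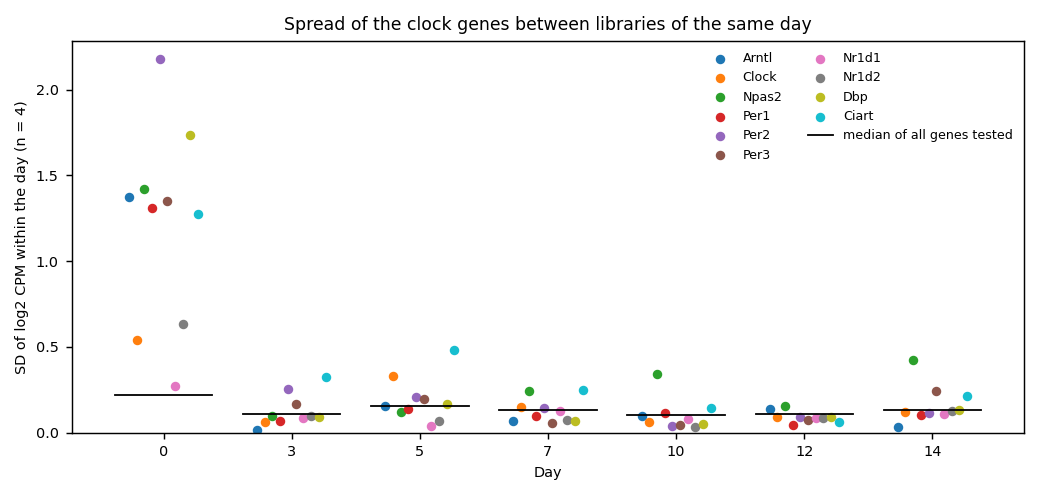
Standard deviation of log2 CPM over the 4 libraries of a day (y axis) for each of the 10 clock genes (coloured points) by day, with the median over all genes tested as a black bar. The Day0 points reach 2.18 for Per2, while no point of a wound day exceeds 0.479.

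The Day0 libraries stood apart in more than the clock. The biological coefficient of variation over all genes was 26.5% in Day0 and 5.77% to 10.8% on wound days. Between replicates 2 and 3 of Day0, 953 genes differed over 2-fold, and between replicates 1 and 4, 1437 did. Across these pairs 2281 to 2501 genes differed over 2-fold, while 738 to 1123 did between libraries of a wound day. No pair of libraries agreed within counting noise. On wound days, Day5 replicate 4, Day7 replicate 4 and Day14 replicate 3 stood apart from their day over all genes, with a median chi-square per gene of 5.81 to 6.52, 3.75 to 4.29 and 3.91 to 4.24 against the other libraries, which had 1.5 to 1.71, 1.90 to 2.05 and 1.82 to 2.58 among themselves. Xist had 0 to 13 counts and the Y-linked Ddx3y 2101 to 3722 counts in every library, the pattern of male tissue, while the study's methods speak of male and female mice.

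Several marker lists moved with the same split of Day0, and their part in the levels of the clock genes was not tested. The summed CPM of 5 fibroblast markers (5 of 5 detected, none at 0) was 17750, 41250, 39830 and 10030 in replicates 1 to 4, high where Arntl was high. The 5 skeletal muscle markers summed to 26360, 16380, 16700 and 27460, and the 5 keratinocyte markers to 7577, 4772, 5183 and 8216, both high where Dbp was high. The 5 endothelial markers summed to 432, 552, 515 and 374 CPM, high where Arntl was high. Adipocyte markers, with 2214, 2515, 2372 and 2951 CPM, did not follow the split, with replicates 2 and 3 between the other two. Macrophage markers, with 1141, 1204, 1200 and 810 CPM, were close in replicates 1 to 3 and lower in replicate 4. Hair follicle markers separated replicate 1 from replicate 4, with 1407, 410, 394 and 185 CPM. Each library thus held transcripts of skin cell types and of muscle, in different amounts. Neutrophil markers summed to 41.7, 15.9, 16.8 and 37.9 CPM, low in all 4 against 4313 to 5453 on Day3.

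The 6 glucocorticoid-responsive genes (Fkbp5, Zbtb16, Sgk1, Klf9, Dusp1 and Tsc22d3) summed to 1060, 457, 450 and 969 CPM in Day0 replicates 1 to 4, high in the libraries with high Per1. The 8 immediate-early genes (Fos, Fosb, Jun, Junb, Egr1, Ier2, Nr4a1 and Atf3) summed to 417, 303, 305 and 430 CPM. The part of either list in the clock genes was not tested. In bulk tissue, fewer cells of a type and less RNA per cell cannot be told apart.

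**Figure D3:**
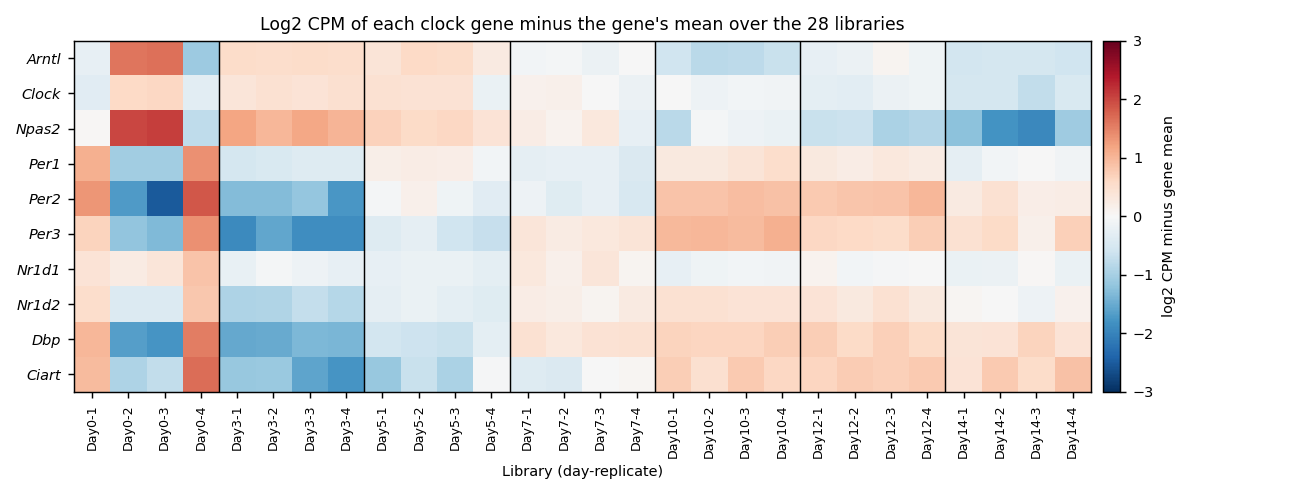
Log2 CPM of each of the 10 clock genes (rows) minus the gene's mean over the 28 libraries, by library (columns, day and replicate), red above and blue below the mean. Day0 replicates 2 and 3 are red for Arntl, Clock and Npas2 and blue for Dbp and the Per genes, replicates 1 and 4 carry the opposite colours for most genes, and from Day3 to Day14 the rows of the activators pass from red to blue and those of Dbp, Per3 and Ciart from blue to red.

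Because Day0 held such different libraries, the wound days were set against each other as well as against Day0. On the later wound days the activators were lower than on Day3 and most of their targets higher. Arntl had 21.6 ± 0.197 CPM on Day3 (mean ± SD, n = 4), 20.3 ± 2.15 on Day5, 14.1 ± 0.631 on Day7, 9.01 ± 0.611 on Day10, 13.7 ± 1.38 on Day12 and 10.1 ± 0.224 on Day14. All 4 libraries of Day7, Day10, Day12 and Day14 lay below all 4 of Day3. Arntl was lowest on Day10, and Day12 was higher than Day10 and Day14 without overlap.

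Npas2 had the largest span of the activators, 6.05-fold between the mean of Day3 and that of Day14. Its 4 libraries read 8.50, 7.45, 8.44 and 7.67 CPM on Day3 and 1.57, 1.04, 0.933 and 1.75 CPM on Day14. Every later wound day lay wholly below Day3. Clock spanned 1.99-fold between the same days, from 74.6 to 81.9 CPM over the Day3 libraries to 34.9 to 42.2 CPM over those of Day14. The Clock library of Day5 replicate 4 read 50.7 CPM against 79.2 to 80.6 in the others of that day.

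Dbp took the opposite course. It had 20.1, 20.3, 22.8 and 22.4 CPM in the Day3 libraries, 40.1, 37.8, 36.7 and 47.4 on Day5, 80.6, 73.0, 78.5 and 80.8 on Day7, and 92.3, 91.0, 91.3 and 97.6 on Day10. Each of these days lay wholly above the one before. The means of Day10 and Day12 were close, at 93.1 ± 3.08 and 91.7 ± 5.64 CPM, and their libraries overlapped, as did those of Day14 at 81.0 ± 7.60 CPM. The log2 fold change of Day10 over Day3 was 2.12 (SE 0.41, edgeR). The fit holds a single spread per gene for all days, so this SE takes in the Day0 split. The SD of log2 CPM of Dbp was 1.734 in Day0, 0.092 on Day3 and 0.047 on Day10. The same limit holds for every SE below, none of which is the error between the named days alone.

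Per3 had the largest span of all members on wound days, 6.96-fold from Day3 to Day10. Its libraries read 6.37, 8.21, 6.61 and 6.57 CPM on Day3 and 47.6, 48.6, 46.8 and 50.3 CPM on Day10, a log2 fold change of 2.80 (SE 0.35). Per2 spanned 4.76-fold between the same days, with 5.10, 5.11, 5.60 and 3.73 CPM on Day3 and 22.8, 22.8, 24.1 and 23.0 CPM on Day10. Per2 did not go up steadily: its Day7 libraries (8.98 to 11.4 CPM) were at the level of Day5 (9.94 to 14.1 CPM), and Day14 (14.5 to 17.2 CPM) lay below Day12 (21.9 to 25.2 CPM) without overlap.

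Per1 showed a smaller, uneven course with a 1.75-fold span. It read 31.8, 33.1, 34.8 and 34.9 CPM on Day3, 51.2, 53.3, 52.1 and 43.3 on Day5, 38.1, 38.6, 38.6 and 33.5 on Day7, and 55.7, 55.6, 59.3 and 66.0 on Day10. Day5, Day10, Day12 and Day14 lay wholly above Day3, and Day7 overlapped it. In CPM, Per1 was thus the only Per gene of the 3 whose Day7 libraries overlapped those of Day3. The overlap rests on Day7 replicate 4, a library that stood apart from its day over all genes. In FPKM the Day7 libraries (3.884 to 4.378) lay above those of Day3 (3.525 to 3.793).

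The receptors parted from each other. Nr1d2 spanned 2.44-fold, from 45.8, 46.0, 52.9 and 47.8 CPM on Day3 to 119, 119, 115 and 115 CPM on Day10, and each later day lay above Day3. Nr1d1 spanned 1.37-fold between its lowest wound day, Day5 (78.8 to 83.4 CPM), and its highest, Day7 (101 to 122 CPM). In CPM the Day7 libraries alone were all above those of Day3 (81.3 to 92.6 CPM), and the Nr1d1 libraries of Day10, Day12 and Day14 overlapped those of Day3. This depended on the scaling: in FPKM the lowest Nr1d1 library was 35.38 on Day12 and 32.18 on Day14, above the highest of Day3 at 31.59. Nr1d1 shares 263 of its 3077 exonic bases with Thra on the opposite strand, and Dbp shares 539 of 2993 with Sphk2. The strand setting of the counting is not given, so reads in the shared stretches cannot be assigned to a gene of the pair. Thra ran from 11.4 to 26.5 FPKM and Sphk2 from 8.09 to 12.5 FPKM over all libraries, while Dbp ran from 6.65 to 66.2 FPKM.

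Ciart read 1.81, 1.85, 1.31 and 1.16 CPM on Day3 and 6.37, 6.84, 6.71 and 7.02 CPM on Day12, a 4.36-fold span. The Day5 libraries (1.80 to 3.93 CPM) overlapped Day3, and those of Day7 to Day14 lay above it. Ciart, with its 3 upstream E-boxes shown above, and Per3, with its 2 D-boxes, thus went the same way as Dbp, and so did Nr1d2, in which none of the motifs was found. In CPM, Per1, which holds an E-box, overlapped Day3 on Day7, and Nr1d1, which holds CACGTT, overlapped Day3 on every day but Day7. In FPKM, Per1 on Day7 and Nr1d1 on Day12 and Day14 lay wholly above Day3.

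Counted against Day3, 5 of the 10 members lay wholly above on Day5 and 6 on each of Day7, Day10, Day12 and Day14, where 14.1%, 24.4%, 30.4%, 32.9% and 32.1% of all genes tested did. Wholly below Day3 were 1 member on Day5 and 3 on each later day, against 14.7%, 25.1%, 29.8%, 31.2% and 31.8% of all genes. The members were picked on this time course, so nothing is read from the counts. With any single library of the days compared left out, the members above Day3 were 5 to 6 on Day5, 6 to 7 on Day7 and on Day12 and 6 on the other days, and those below stayed at 1 and 3. The median log2 fold change of the members over Day3 was 0.57, 0.72, 1.05, 0.96 and 0.59 on Day5, Day7, Day10, Day12 and Day14, against 0.01, 0.02, 0.04, 0.04 and 0.04 over all genes.

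The ratio of Dbp to Arntl FPKM, which is free of the library scale, went up from Day3 to Day10 and was lower on Day12. It was 7.04 to 8.03 over the 4 libraries of Day3, 12.8 to 20.3 on Day5, 38.9 to 45.3 on Day7, 72.1 to 82.5 on Day10, 46.3 to 59.0 on Day12 and 57.2 to 68.2 on Day14. Day10 did not overlap any other wound day. The ratio of Per3 to Npas2 went from 0.469 to 0.690 on Day3 up to 13.1 to 21.6 on Day14. For both ratios, each Day0 library with a low value lay below every wound library, at 3.14 and 2.78 for Dbp to Arntl and 0.439 and 0.377 for Per3 to Npas2.

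**Figure D4:**
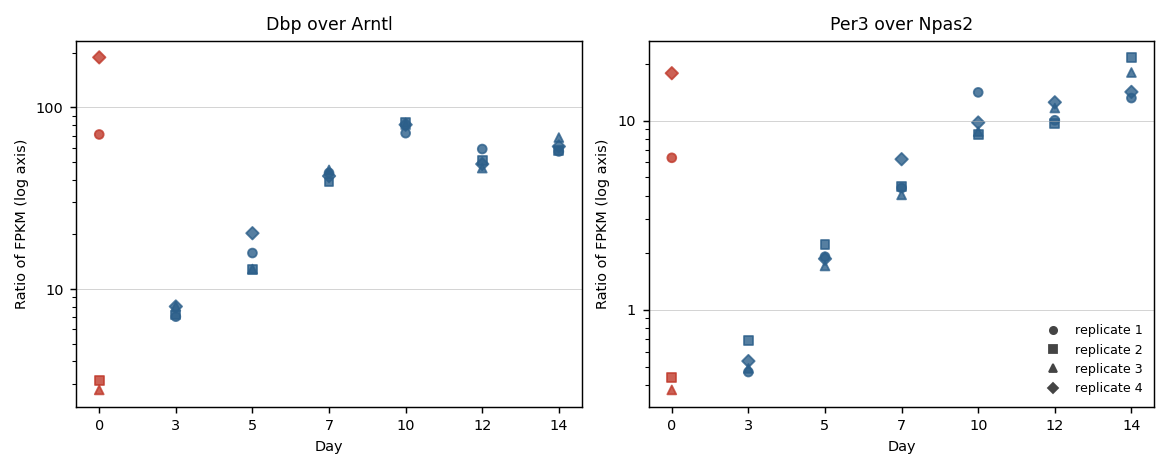
Ratio of FPKM (log axis) of Dbp to Arntl (left) and of Per3 to Npas2 (right) in each library against the day, with marker shape for the replicate number, red for Day0 and blue for wound days. The Dbp to Arntl ratio lies between 7.04 and 8.03 on Day3 and between 72.1 and 82.5 on Day10, and the Day0 libraries spread from 2.78 to 189.

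Cell type markers changed over the same days, and their part in the course of the clock genes was not tested. The 5 neutrophil markers summed to 4313 to 5453 CPM on Day3, 219 to 244 on Day10 and 14.8 to 18.5 on Day14. The 5 macrophage markers went from 2028 to 2129 CPM on Day3 to 278 to 312 on Day14. The 5 fibroblast markers, which were high in the Day0 libraries with high Arntl, went from 11760 to 13460 CPM on Day3 to 31860 to 36940 on Day10, when Arntl was lowest, and to 10290 to 12600 on Day14. The 5 skeletal muscle markers, high in the Day0 libraries with high Dbp, went from 3649 to 4743 CPM on Day3 to 7314 to 9356 on Day10 and 4023 to 5023 on Day14. Keratinocyte markers ran from 3730 to 4712 CPM on Day3 to 4993 to 5760 on Day10 and 4261 to 5651 on Day14. Adipocyte markers went from 4262 to 5368 CPM on Day3 to 2255 to 2387 on Day12 and 3964 to 4141 on Day14, and endothelial markers from 751 to 827 CPM on Day3 to 360 to 414 on Day14. The 5 hair follicle markers took an uneven course, at 2.70 to 8.72 CPM on Day3, 731 to 1006 on Day7, 192 to 225 on Day10 and 3219 to 4352 on Day12. The 8 immediate-early genes summed to 881 to 975 CPM on Day3 and 321 to 348 on Day10. In all of these lists every marker was detected.

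The design sets each wound day against Day0, the control. No member lay wholly above Day0 on any day, where 28.2%, 22.9%, 19.9%, 19.5%, 18.6% and 23.4% of all genes tested did on Day3 to Day14. Wholly below Day0 were Per3, Nr1d1, Nr1d2 and Ciart on Day3, Nr1d1 on Day5, no member on Day7, Nr1d1 on Day10 and on Day12, and Clock, Npas2 and Nr1d1 on Day14. The shares of all genes below were 28.6%, 23.2%, 19.3%, 21.9%, 20.2% and 27.3%. As above, nothing is read from these counts, and they rest on the Day0 libraries. Without replicates 1 and 4, 2 members lay above Day0 on Day3, 5 on Day5 and 6 on each later day, with 7, 4, 3, 4, 4 and 4 below. Against the 2 libraries left, 30.5% to 37% of all genes lay above and 29% to 37.8% below on a day. Without replicates 2 and 3, 3, 3, 2, 1, 1 and 0 members lay above and 7, 7, 7, 6, 6 and 8 below, where 27.2% to 34.3% and 29.4% to 35.9% of all genes did. More genes clear 2 libraries than 4 by construction. Without replicate 4 alone, 1 was above and 3 below on Day10, and 2 were below on Day12, and without replicate 2 alone 1 was below on Day7.

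The position of each member against the Day0 range differed by gene. All 24 wound libraries of Arntl, Per1, Per2 and Dbp fell inside the range of the 4 Day0 libraries. For Clock, Per3 and Nr1d2, 20 of 24 did and 4 were below, for Ciart 18 were inside and 6 below, and for Npas2 17 were inside and 7 below. For Nr1d1, 22 of 24 were below and 2 inside. Nr1d1, the member with the narrowest Day0 range, was therefore the one that stayed apart from Day0 on most days, with log2 fold changes of -0.65 on Day3, -0.72 on Day5, -0.26 on Day7, -0.63 on Day10, -0.49 on Day12 and -0.62 on Day14 (SE 0.09 each).

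The fold changes of the other members over Day0 depended on which Day0 libraries were kept. For Dbp on Day10 the log2 fold change was 0.21 (SE 0.39) with all 4, 2.38 without replicates 1 and 4, and -0.62 without replicates 2 and 3. For Arntl on Day3 it was -0.37 (SE 0.31), -1.09 and 1.20 in the same order, and for Per2 on Day3 it was -2.09 (SE 0.50), 0.70 and -2.94. Of the 60 fold changes of the members over Day0, 21 changed sign without replicates 1 and 4 and 26 changed sign without replicates 2 and 3. Those of Nr1d1, whose sign its place below Day0 fixes on every day but Day7, ran from -0.07 to -0.53 and from -0.43 to -0.87. The choice of these pairs was made after the data were seen.

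Where all 4 libraries of a day lay below all of Day0, leaving out Day0 libraries cannot turn the sign. Of the members that overlapped Day0, Nr1d1 on Day7, Arntl on Day10 and Npas2 on Day12 had a negative log2 fold change both ways. It was -2.35 without replicates 1 and 4 and -0.11 without replicates 2 and 3 for Arntl, and -2.84 and -0.47 for Npas2.

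Members moved together over the libraries, as far as a correlation of log2 CPM over libraries that share their day can describe it. Dbp and Arntl had Pearson r of -0.88 over the 28 libraries and -0.84 over the 24 wound libraries. Dbp had r of 0.95 with Per3, 0.92 with Nr1d2 and 0.91 with Per2 over 28 libraries, and Arntl had 0.82 with Npas2 and 0.80 with Clock. Nr1d1 had r of 0.28 with Dbp and -0.05 with Arntl. Within wound days, after the day means were taken off, r was -0.28 for Dbp and Arntl and -0.51 for Dbp and Per3 over 24 libraries. Over the 45 pairs of members this r ran from -0.68 (Clock and Dbp) to 0.55 (Clock and Per1), and 20 pairs had the sign they had over the 28 libraries, such as Arntl and Clock at 0.47.

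Genes most like Dbp in log2 CPM over the 28 libraries, among 14684 with a mean of at least 1 CPM, were Per3 (r of 0.954), Nr1d2 (0.923), Tef (0.915), Maco1 (0.911) and Per2 (0.908). Tef is, like Dbp, a factor of the PAR bZIP family. Over the 24 wound libraries these 5 had r of 0.964, 0.951, 0.974, 0.878 and 0.852. For deviations within days, which rest on the Day0 split, the closest were Wee1 (0.977), Tef (0.973), Tsc22d3 (0.972), Per1 (0.971) and Mcm10 (0.967), and in the 24 wound libraries their r was 0.705, -0.232, 0.64, -0.033 and 0.443.

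Genes most like Arntl over the 28 libraries were Agtr1a (0.908), Sgpp2 (0.895), Enpep (0.884), Adgrd1 (0.883) and Klk10 (0.879), none of them a clock gene of the lists used here. Over the wound libraries r was 0.841 to 0.874 for these 5. Within days, Lgi2 (0.981), Aox4 (0.979), Gfpt2 (0.972), Adgrd1 (0.97) and C1s1 (0.967) led, with r of 0.066 to 0.497 in the wound libraries. All of these libraries share tissue and time, and no test was run.

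Other parts of the clock were tested on 21 further genes, fitted with all genes in edgeR's quasi-likelihood test (two-sided, Benjamini-Hochberg adjusted p under 0.05 over 18107 genes). Each gene had a single spread for all days, so a p-value against Day0 does not measure the Day0 spread by itself. The list holds cryptochromes, ROR receptors, Arntl2, the repressors Bhlhe40 and Bhlhe41, D-box factors, kinases and ubiquitin ligases of clock proteins, and clock outputs, and all 21 passed the filter. Over Day0, 14 were lower and 5 higher on Day3, where 34.8% and 31.8% of all genes were called. On Day5, 11 were lower and 5 higher (30.6% and 29% of all genes). On Day7, 10 were lower and 2 higher (24.8% and 25.6%), on Day10, 8 and 1 (26.9% and 23.5%), on Day12, 7 and 2 (25.6% and 21.7%), and on Day14, 11 and 2 (34.5% and 28.2%). Without Day0 replicates 1 and 4 the list had 8 higher on Day5 and on Day7, 10 on Day10 and on Day12 and 9 on Day14, with 7 lower on Day5 and 4 on Day10. In that fit 29%, 25.6%, 24.6%, 22.8% and 28.9% of all genes were higher on Day5 to Day14, and 28.5% and 24.8% lower on Day5 and Day10. Without Day0 replicates 2 and 3 it had 1 higher on Day7 and 0 on Day10, with 14 lower on Day12, where 25%, 20.9% and 22% of all genes were called. Fitted on the 8 libraries compared, 0 were higher on Day7 and on Day10 and 3 lower on Day10 (18%, 20.8% and 22.8% of all genes). Without Day0 replicate 4 alone, 4 were higher on Day7, Day10 and Day12 and 5 on Day14, without replicate 1, 4 on Day7 and 2 on Day10, and without replicate 2 or 3, 0 on both days. Leaving out any Day7 library left 1 higher on Day7, and leaving out Day10 replicate 4 left 0 on Day10.

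The cryptochrome Cry2, which inhibits the activator pair, fell on all 6 days, with log2 fold changes from -1.38 on Day3 (SE 0.12, edgeR adjusted p = 7.9e-11) to -0.54 on Day12 (SE 0.12, adjusted p = 4e-04). Cry1 fell on Day3 and Day7 only, with -0.70 (SE 0.14) and -0.61 (SE 0.14), but without Day0 replicates 1 and 4 it was called higher on 4 days and lower on 1, and without replicates 2 and 3 lower on 4. Rora, a receptor that drives Arntl at the sites NR1D proteins repress, fell on all 6 days, by 1.54 on Day3 (SE 0.09, adjusted p = 4e-14) and by 0.50 on Day12 (SE 0.09, adjusted p = 6.2e-05) on the log2 scale. Rora was called lower on all 6 days both without Day0 replicates 1 and 4 and without replicates 2 and 3, while Cry2 was called on 4 and 6 days.

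Usp2, a deubiquitinase among the outputs, and Btrc, a ubiquitin ligase subunit for PER proteins, fell on all 6 days. Usp2 ranged from -1.69 on Day3 to -0.78 on Day10 (SE 0.23 each), and Btrc from -0.47 on Day14 to -0.20 on Day10 (SE 0.08 each). Without Day0 replicates 1 and 4, Usp2 was called lower on 4 days and higher on 1, and Btrc lower on 5, and without replicates 2 and 3 they were lower on 6 and 5 days. Tsc22d3, a glucocorticoid target that is also rhythmic and stands in both lists, fell on 5 days, with -1.73 on Day3 (SE 0.28), and without Day0 replicates 1 and 4 it was called lower on 2 days and higher on 3. Csnk1d, the kinase CK1 delta that acts on PER proteins, rose on all 6 days by 0.16 to 0.32 (SE 0.06), and on 2 days without Day0 replicates 2 and 3. Fbxl21 was called on no day against Day0, with log2 fold changes of -0.73 to 0.64 and SE of 0.43 to 0.47.

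The D-box family divided by sign on Day3, on which Dbp was at its lowest wound level. The activators Tef and Hlf fell, with log2 fold changes over Day0 of -1.92 (SE 0.25, adjusted p = 1.3e-07) and -2.47 (SE 0.27, adjusted p = 5.7e-09), and Nfil3, which represses through the same sites, rose by 1.77 (SE 0.09, adjusted p = 2.7e-15). The Day0 SD of log2 CPM was 1.006 for Tef and 0.993 for Hlf, against 0.046 and 0.159 on Day3. The shared spread of the fit thus understates the error of their Day0 means. The E-box repressors also divided, with Bhlhe40 at 0.92 (SE 0.11, adjusted p = 2.4e-08) and Bhlhe41 at -2.47 (SE 0.19, adjusted p = 3e-12). On Day10 over Day3, Tef, Hlf and Bhlhe41 rose by 1.82 (SE 0.25), 2.27 (SE 0.27) and 2.50 (SE 0.18), and Nfil3 and Bhlhe40 fell by 2.12 (SE 0.10) and 0.88 (SE 0.11), each with an adjusted p of 4.1e-07 or smaller. Against Day0 these genes depended on the libraries kept. Without replicates 1 and 4, Tef, Hlf and Bhlhe41 were called higher on 4 days each and lower on 1, 1 and 2 days. Without replicates 2 and 3 they were called lower on 6, 6 and 5 days. Bhlhe40 was called higher on 2 days with all libraries, on 6 without replicates 1 and 4, and higher on 2 and lower on 3 without replicates 2 and 3. Nfil3 was higher on 2 days and lower on 2 with all libraries, 2 and 3 without replicates 1 and 4, and 4 and 0 without replicates 2 and 3. These genes and Cry1 were singled out after their values were seen.

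Over Day3, of the 21 further genes 8 were higher and 1 lower on Day5 (12.9% and 11.4% of all genes called), 6 and 6 on Day7 (25.8% and 24.2%), 10 and 6 on Day10 (30.7% and 28.4%), 11 and 6 on Day12 (33.1% and 30.6%), and 8 and 7 on Day14 (34.2% and 32.8%). A joint test over the wound days alone called 18 of 21, where 85.1% of all genes were called, and did not call Csnk1d, Fbxl21 and Btrc. The share of these clock genes that differed between wound days was thus near that of all genes. The count of 8 on Day5 was 5 without Day3 replicate 3 and without Day5 replicate 3. Fitted on the 8 libraries compared, 10 were higher on Day7 and 2 lower on Day5, where 29.7% and 14.5% of all genes were called. The comparisons with Day3 were added after the data were seen.

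**Figure D5:**
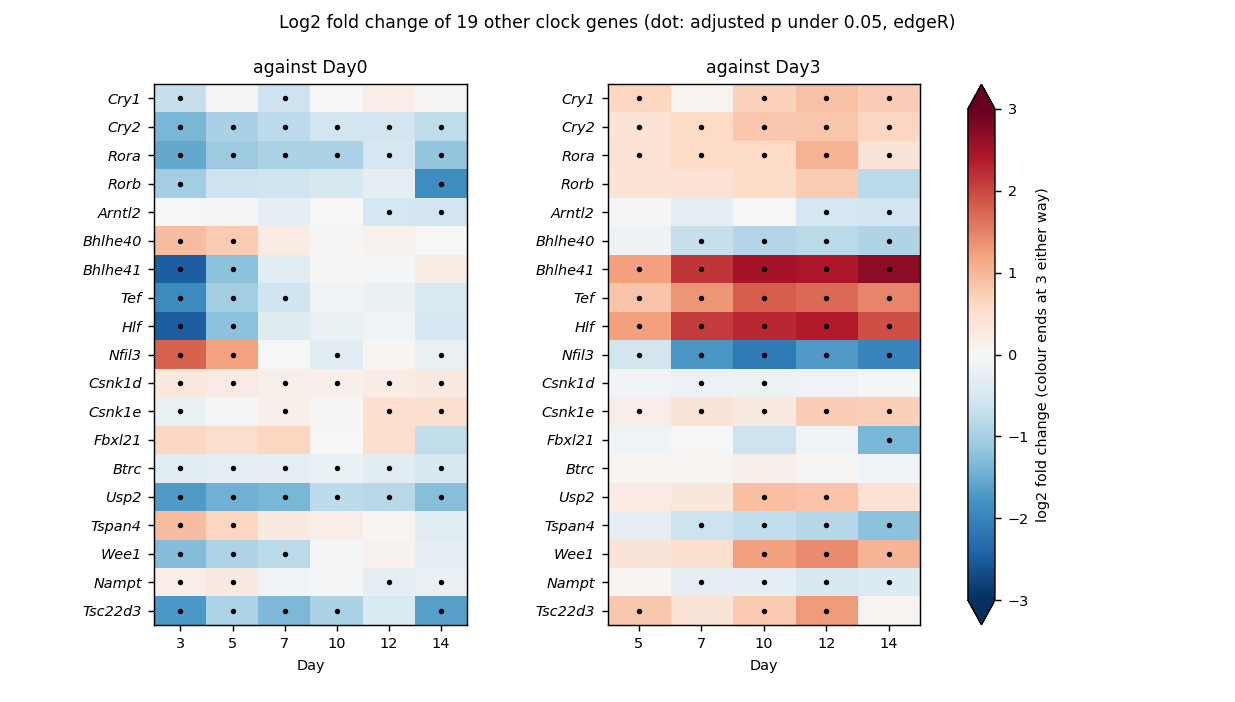
Log2 fold change (colour, ending at 3 either way) of 19 of the 21 further clock genes (rows) by day (columns), against Day0 on the left and against Day3 on the right, with a dot where the edgeR adjusted p was under 0.05. Bhlhe41, Tef and Hlf are blue on Day3 and Day5 against Day0 and red on every day against Day3, and Nfil3 shows the opposite colours.

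The glucocorticoid-responsive and immediate-early genes were counted beside the clock genes, and the lists were not tested against each other. Of the 6 glucocorticoid-responsive genes, 4 were lower and 1 higher on Day3 than on Day0, where 34.8% and 31.8% of all genes were called, and 5 were lower on Day14, where 34.5% were. Over Day3, 3, 1, 4, 4 and 2 of the 6 were higher on Day5 to Day14, against 12.9%, 25.8%, 30.7%, 33.1% and 34.2% of all genes. Their summed level was 478 to 510 CPM on Day3, 596 to 623 on Day5, 441 to 446 on Day7, 495 to 525 on Day10, 547 to 620 on Day12 and 358 to 381 on Day14. The sum was higher on Day5 than on Day3 and Day7, as were the day means of Per1, Per2 and Cry1. The sum was lowest on Day14, where the mean of Per1 (42.1 CPM) was above that of Day3 (33.6 CPM). Of the 8 immediate-early genes, 6 were higher on Day3 (31.8% of all genes) and on Day5 (29%), and on Day10 5 were lower and 1 higher than on Day0 (26.9% and 23.5%). Over Day3, 6, 6, 7, 6 and 8 of these 8 were lower on Day5 to Day14 (11.4%, 24.2%, 28.4%, 30.6% and 32.8% of all genes). The Day0 libraries that split the clock genes also entered these calls, and the glucocorticoid list was split in the same way. Dusp1, Klf9, Sgk1 and Tsc22d3 are known to answer to several signals besides glucocorticoids.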

How the data were processed

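The authors deposited raw read counts for 29068 gene symbols in 28 libraries, made from total RNA by TRIzol and the VAHTS Universal V6 kit. Per the labels, reads were handled with fastp, R 3.2.0 and build mm10, and the aligner, counter, annotation and strandedness are not given in the sources used here. The authors also deposited FPKM values, used for ratios between genes.

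Counts were fitted in edgeR 4.0.16 (R 4.3.3; TMM, filterByExpr, quasi-likelihood test, 7 day groups, no covariates, 21 residual degrees of freedom), and 18107 genes were tested. A single spread per gene served all days, although the Day0 libraries spread more than those of wound days. Libraries held 36706513 to 40655764 counts, so counting error matters mainly for genes with few counts. The 10 clock genes received no test. The script was tested on simulated data. Alternatives were DESeq2 1.42.0, other scalings, no filter, the 8 libraries compared, Xist as a covariate, a replicate block, log2(FPKM + 0.1), the study's criteria and omitted libraries.

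Members and lists were chosen with earlier results of these data known. The rule for named genes took the 10 members, further clock genes called on at least 4 of 6 days in 1 direction or on no day (some of these genes enter the counts but are not reported here by name), the marker and side lists as sums, and the 5 genes most like Dbp and Arntl. Cry1, Tef, Hlf, Nfil3, Bhlhe40 and Bhlhe41 fall outside it and were named after their values were seen. Gene positions are those of GENCODE M21 (GRCm38, the same build as mm10), and motifs were searched in RefSeq windows. The labels do not say that a replicate number marks a shared source. Libraries with the same number did not in general deviate together, and the highest correlation, 0.177, was between replicate 4 of Day5 and of Day7.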

Additional observations from a re-analysis of the deposited data

Results flagged for a closer look

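Among the 70 groups of 4 libraries (10 genes on 7 days), 5 held a library far from the other 3 by Dixon's criterion, the gap to its neighbour against the range, where chance gives about 3.5, since about 5% of groups meet it by chance. Clock in Day5 replicate 4 had a log2 CPM of 5.66 against 6.31 to 6.33 in the others. Per1 in Day7 replicate 4 had 5.07 against 5.25 to 5.27. Per3 in Day3 replicate 2 had 3.05 against 2.68 to 2.74. In Day14 replicate 3 Nr1d1 had 6.61 against 6.38 to 6.41, and Dbp had 6.53 against 6.25 to 6.29. No group of Day0 was among the 5. The 4 values outside Day3 come from 3 libraries (Day5 replicate 4, Day7 replicate 4 and Day14 replicate 3) that also stood apart from their day over all genes, with a median chi-square per gene of 3.75 to 6.52 against the other libraries of the day and 1.5 to 2.58 among those.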

How the results depend on the processing

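The counts of further clock genes called stayed within 1.5 times of those reported under DESeq2, DESeq2's size factors, no composition normalization and the Xist covariate, in all 22 comparisons with Day0 or Day3 for each. The counts of members not overlapping stayed so under DESeq2's size factors, library totals and the deposited FPKM. Single genes did move: under library totals and under FPKM, 7 members in place of 6 lay above Day3 on Day7, Day12 and Day14. Under the study's criteria (a change beyond 1.5 on the log2 scale with p under 0.05, met by 0.685% to 12.4% of all genes per comparison and direction) the further clock genes higher and lower than Day0 were 1 and 6 on Day3, 0 and 0 on Day5, Day7, Day10 and Day12, and 0 and 2 on Day14, and against Day3 they were 0 and 0, 2 and 1, 3 and 1, 3 and 1, and 2 and 1 on Day5 to Day14. These criteria ask for a larger change by construction. On Day7, 0 were higher without the filter and 0 with the 8 libraries only, which also gave 0 higher and 3 lower on Day10, and 2 lower on Day5 and 10 higher on Day7 against Day3. The fit on 8 libraries takes its spread from those libraries alone, while the main fit shares a single spread per gene over all days. The part of this in the counts was not tested.

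Without Day0 replicates 1 and 4, further genes higher were 8, 8, 10, 10 and 9 on Day5 to Day14 and lower were 7 on Day5 and 4 on Day10, and members above Day0 were 2, 5, 6, 6, 6 and 6 and below 7, 4, 3, 4, 4 and 4 (30.5% to 37% of all genes above and 29% to 37.8% below). Without Day0 replicates 2 and 3, further genes higher were 1 on Day7 and 0 on Day10 and lower 14 on Day12, and members above were 3, 3, 2, 1 and 1 on Day3 to Day12 and below 7, 7, 7, 6, 6 and 8 (27.2% to 34.3% and 29.4% to 35.9% of all genes). Both omissions were chosen after seeing the data. Leaving out 1 library at a time gave, for further genes against Day0 on Day3, Day5, Day7, Day10, Day12 and Day14, 5 to 5, 5 to 5, 0 to 4, 0 to 4, 2 to 4 and 2 to 5 higher and 13 to 14, 10 to 11, 8 to 11, 6 to 7, 7 to 8 and 9 to 14 lower. Against Day3 on Day5 to Day14 it gave 5 to 7, 6 to 6, 9 to 10, 11 to 12 and 8 to 8 higher and 1 to 1, 6 to 7, 5 to 7, 6 to 7 and 6 to 8 lower. Members not overlapping Day0 were 0 to 1 above on Day10 and 0 to 0 on the other days, and 4 to 4, 1 to 1, 0 to 1, 1 to 3, 1 to 2 and 3 to 4 below.

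With the replicate block, 14 further genes were lower and 5 higher on Day3, 10 and 5 on Day5, 9 and 2 on Day7, 8 and 1 on Day10, 7 and 2 on Day12 and 10 and 2 on Day14, so no count moved by over 1.5 times. Of 84 correlations between libraries with the same number on different days, 1 exceeded 0.1 (range -0.076 to 0.177). It was that of replicate 4 of Day5 with replicate 4 of Day7, both of which stood apart from their day. Apart from it, the numbers showed no pairing of samples, and a shared source of these libraries was not tested. On the log2(FPKM + 0.1) scale, 7 of 60 fold changes of members over Day0 had the opposite sign. Depth is thinnest for Npas2 and Ciart, at 38 to 73 and 42 to 68 counts on their lowest days.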
